A study of Mus musculus with 24 samples.

Results

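The genes that carry fatty acids into the cell and oxidise them were followed in brain, heart and skeletal muscle of *Eya3*-/- mice. Members were taken by gene symbol, from the families of the fatty acid transporters (*Slc27a*) and binding proteins (*Fabp*), the acyl-CoA synthetases (*Acsl*, *Acss*), the carnitine palmitoyltransferases, the acyl-CoA dehydrogenases, oxidases and thioesterases, the hydratases, isomerases and reductases of the oxidation spiral and the electron transfer flavoprotein, with *Acaa1a*, *Acaa2*, *Lpl* and *Crat* added by name. They were 50 of the 9030 symbols on the array, carried by 67 cDNA clones, and the rule itself uses symbols only. *Etf1*, a translation termination factor, was caught only by the start of its symbol and is kept in the counts. *Cd36*, *Acat1*, *Cpt1a*, *Hadhb* and *Acsl1* were not analysed here.

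The mutants were 4 male *Eya3*-/- mice of 13 weeks, called W to Z here, that carried a promoterless *lacZ* gene trap in an intron of *Eya3* on a mostly C57BL/6 background from Sv129S2 embryonic stem cells. RNA of each organ was hybridised against pooled wild-type RNA of the same organ from males of 13 weeks, on 2 arrays per mouse and organ with the dyes exchanged, which gave 8 arrays per organ and 24 in all. All animals came from 1 gene-trap line. The sources differ on how many animals were pooled, and the range of animal numbers given for the pool takes in numbers of mice called mutant, so the makeup of the pool is uncertain. A pool is 1 control sample, and p-values therefore measure only the spread between the mutant mice.

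Fatty acids reach heart and muscle in part from circulating lipoproteins through lipoprotein lipase and enter cells with the help of transport proteins. Inside the cell they are bound by fatty acid binding proteins, activated to acyl-CoA, moved into mitochondria as carnitine esters and shortened in a repeated cycle of dehydrogenation, hydration, a further dehydrogenation and thiolysis, with electrons leaving through the electron transfer flavoprotein. Heart and oxidative muscle live largely on this pathway, whereas adult neurons use it little, and many of its genes are targets of the PPAR nuclear receptors.

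The deposited values were log2 ratios without a level, so a value above 0 means more signal in the mutant than in the pool. That direction is likely, since the study speaks of mutants against controls, but it is not stated. The haemoglobin clones had the same sign on both arrays of a mouse in 67 of 72 pairs, which shows only that both dye orientations run the same way. Between 4.75% and 24.5% of spots of an array had no value, and array medians lay between -0.26 and 0.14. Over all clones, dye-swapped arrays of a mouse correlated by -0.10 to 0.01 (median -0.04, a description across clones that share probes and slides). The tissue labels could not be checked by marker level, and whether spots had values did not separate the organs either, since 12 of 13 cardiac muscle genes on the array also had values in brain. The only *Eya3* clone had values on both arrays in 2 mice, both in heart, of 0.02 in mouse W and -0.38 in mouse Y, so the targeted gene gave no check of the genotype. In whole organs, fewer cells of a type and less RNA per cell cannot be told apart.

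A gene was counted as measured in an organ when at least 1 of its clones had both arrays in at least 3 of 4 mice. This held for 39 members in brain, 43 in heart and 42 in muscle, or 78%, 86% and 84% of the 50, beside 81.9%, 83.7% and 79.9% of all symbols. All 4 mice gave values for 30, 39 and 36 of them. Of the members, 36 were measured in all 3 organs, and *Acsl4*, *Etfa*, *Fabp1* and *Fabp9* in none.

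No member passed the test in any organ. At an adjusted p under 0.10 (limma on mouse means, Benjamini-Hochberg over all symbols of the organ), 0 of 39 members were called in brain, where the share among all symbols was 0%. In heart 0 of 43 members were called beside 0.0132% of all symbols, and in muscle 0 of 42 beside 0%. A one-class SAM also called 0 members in each organ, and 0 of 7392, 2 of 7558 and 1 of 7216 symbols. The lowest adjusted p of a member (limma) was 0.499 in brain and 0.793 in heart, and in muscle it was 0.941. At an unadjusted p under 0.05, brain held 1 member above the pool (4.75% of all symbols) and 3 below it (4.84%). Heart held 1 above (2.54%) and 1 below (2.61%), and muscle 1 above (2.11%) and 1 below (1.54%).

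The mean log2 ratio lay above 0 for 20 and below 0 for 19 of the members in brain, for 28 and 15 in heart and for 15 and 27 in muscle. Without mouse Z, clones needed both arrays in every other mouse, so fewer genes were measured. Then 11 of 30 members lay below 0 in brain and 9 of 40 in heart. These were 36.7% and 22.5%, beside 56.5% and 47.9% of all symbols. With mouse Z kept and both arrays required in all 4 mice, 11 of 30 in brain and 13 of 39 in heart lay below 0. These were 36.7% and 33.3%, beside 58% and 44.8% of all symbols. On the arrays with the mutant in Cy5 alone, 24 of 50 members lay below 0 in heart, or 48%, beside 44.7% of all symbols. In muscle 20 of 37 members (54.1%) lay below 0 without mouse Z, beside 51.5% of all symbols. With both arrays required in all 4 mice, 23 of 36 did (63.9%, beside 49.3%). With the mutant in Cy5 alone 28 of 47 muscle members lay below 0 (59.6%, beside 56.5%), and in Cy3 alone 24 of 45 (53.3%, beside 43.6%). In the setting with both dyes, of all symbols, 44.9% lay above and 55.1% below 0 in brain, 53.7% and 46.3% in heart and 51.8% and 48.2% in muscle. The members had a median of 0.01 in brain and 0.07 in heart, and of -0.06 in muscle, beside -0.04, 0.03 and 0.01 over all symbols. The medians of the members in single mice had an SD over the 4 mice of 0.10 in brain and in muscle and 0.09 in heart. A single member measured in all 4 mice had a median SD over mice of 0.31, 0.31 and 0.34, beside 0.37, 0.39 and 0.45 over all symbols. Mean ratios lay within 0.5 of 0 on the log2 scale for 28 of 30, 35 of 39 and 35 of 36 of these members, or 93.3%, 89.7% and 97.2%, beside 87.1%, 88.8% and 87.3% of all symbols. All 4 mice lay above 0 for 3 members in brain, 3 in heart and 2 in muscle (8.52%, 9.94% and 6.57% of all symbols) and below 0 for 4, 0 and 4 (16.1%, 6.93% and 4.78%).

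**Figure D1:**
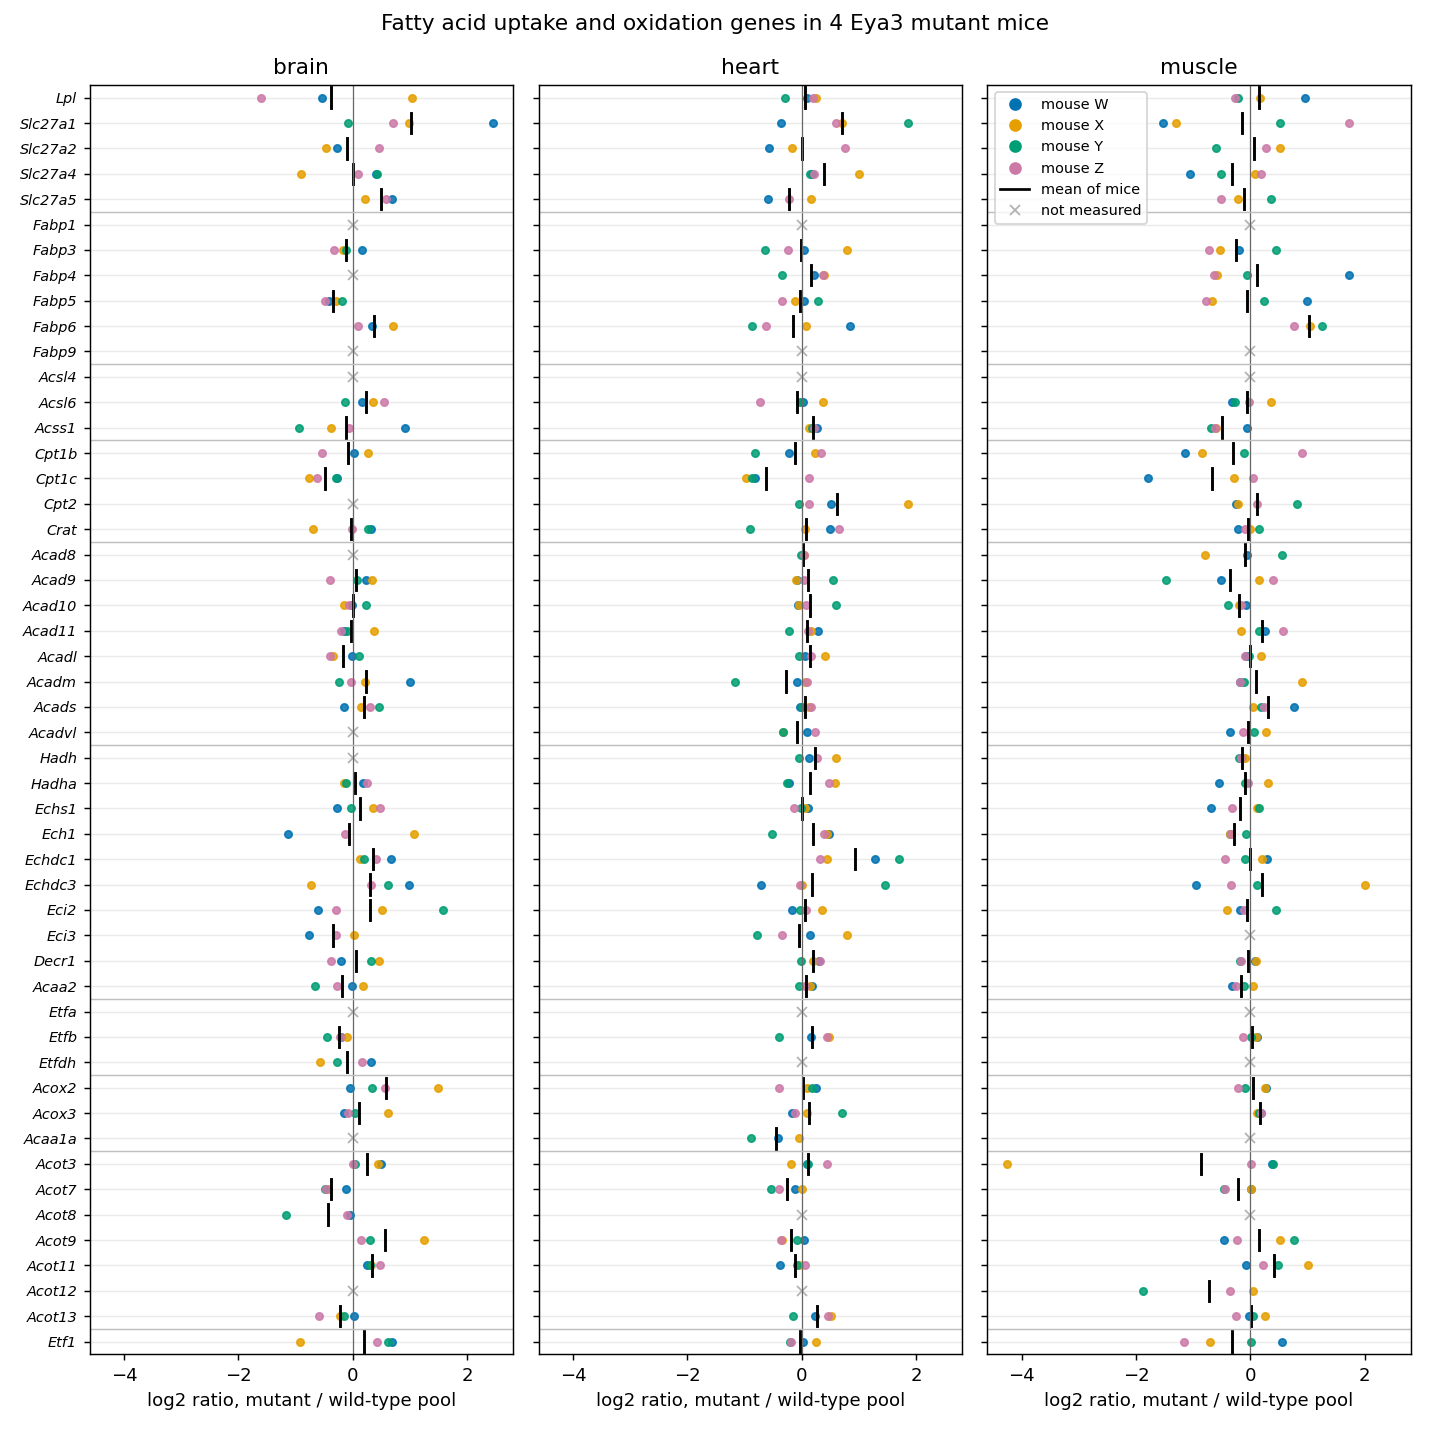
Log2 ratio of mutant over wild-type pool (horizontal axis) for each of the 50 genes, grouped by role, in brain, heart and muscle. Points are mice W to Z, black bars are means over mice and crosses mark genes that were not measured; most points lie near 0, and the lowest is *Acot3* in muscle of mouse X at -4.26.

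Mice differed in where the members lay as a whole. In heart the median of the members was 0.05 in mouse W, 0.14 in X, -0.05 in Y and 0.12 in Z, with 0.01, 0.02, -0.02 and 0.08 over all symbols. Mouse Y had 29 of 41 members below 0, or 70.7%, where 52.0% of all symbols were below 0, and it gave the lowest of the 4 values for 22 of 39 members (56.4%, beside 34.1% of all symbols). The low position of mouse Y came with its array that had the mutant in Cy5, on which the median of the member clones was -0.44, whereas it was 0.07 on its array with exchanged dyes. In muscle the medians of mice W to Z were -0.11, 0.05, 0.01 and -0.16, and in brain 0.01, 0.16, 0.00 and -0.07. Thus no organ had all mice on the same side of 0.

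**Figure D2:**
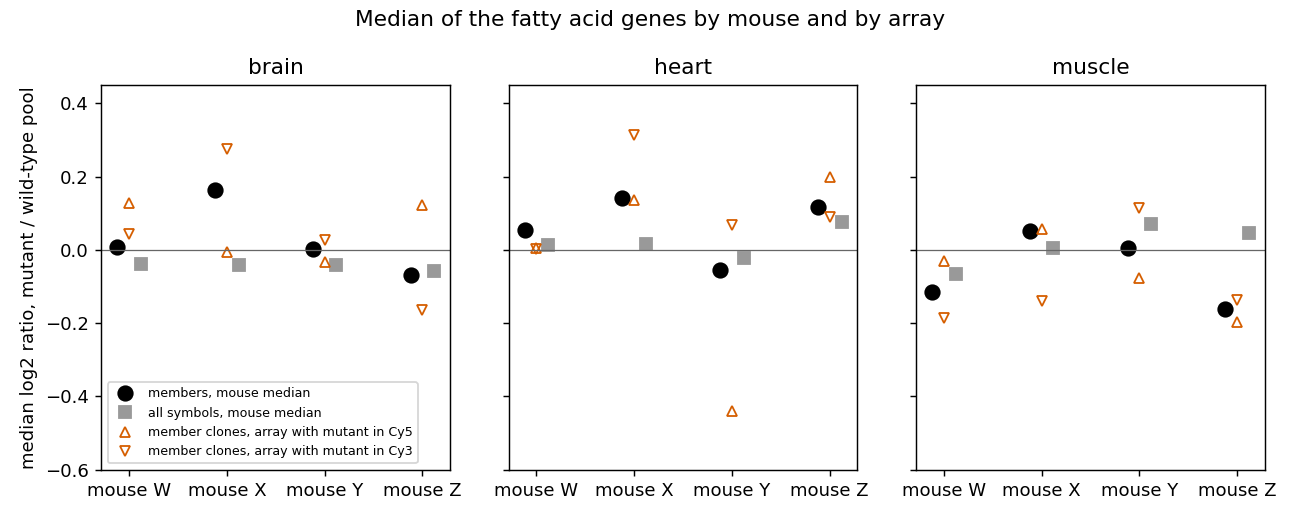
Median log2 ratio of mutant over wild-type pool (vertical axis) for each mouse in brain, heart and muscle. Black circles are the fatty acid genes, grey squares all symbols, and open triangles the member clones on single arrays; the lowest triangle is the Cy5 array of mouse Y in heart at -0.44.

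Among the genes of uptake, *Lpl*, which frees fatty acids from lipoproteins, had 3 clones that gave mean ratios of 0.01 to 0.12 in heart. Its gene values there were 0.09, 0.25, -0.29 and 0.20 in mice W to Z, on average 0.06 ± 0.24 (SD, n = 4; limma adjusted p = 0.925). The mice lay on both sides of 0, with mouse Y lowest. *Slc27a1*, the fatty acid transporter of muscle and fat, had the highest mean of all members in brain, at 1.02 ± 1.06 (SD, n = 4; limma adjusted p = 0.499). Its values were 2.45, 0.98, -0.08 and 0.71 in brain, and mouse W alone reached more than 1. In heart they were -0.36, 0.70, 1.86 and 0.60, with another mouse highest. In muscle they ran from -1.53 to 1.73, so that 1 clone of *Slc27a1* spanned more than 3 log2 units among mice of a single genotype. *Slc27a4*, a transporter with acyl-CoA synthetase activity, lay above 0 in all 4 hearts at 0.18, 1.01, 0.14 and 0.21 (mean 0.39 ± 0.42, SD). Mouse X carried most of that mean, and in muscle the mean was -0.33 ± 0.58 with mice on both sides of 0. In heart its clone 6917 was above 0 in all 4 mice, whereas clone 7658 read -0.135, 0.82, -0.35 and 0.22. *Slc27a5*, known as the bile acid-CoA ligase of liver, had 0.69, 0.21 and 0.58 in the 3 brains measured and -0.59, 0.17 and -0.22 in the hearts of the same mice. With the mutant in Cy5 its brain mean was 1.13, with the mutant in Cy3 -0.16, and both arrays had the same sign in 1 of 3 mice. *Slc27a2*, a very-long-chain acyl-CoA synthetase, had means between -0.10 and 0.07.

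Of the binding proteins, *Fabp3*, the form of heart and muscle, had a mean of -0.01 ± 0.60 in heart, -0.26 ± 0.52 in muscle and -0.12 ± 0.21 in brain (SD, n = 4). Mice lay on both sides of 0 in every organ. *Fabp5*, made in many tissues including brain and fat, was below 0 in all 4 brains, at -0.41, -0.30, -0.19 and -0.49. Its mean there was -0.35 ± 0.13 (SD, n = 4; unadjusted p = 0.0485, limma adjusted p = 0.499). On the arrays with the mutant in Cy5 the brain mean of its single clone was -0.06, on those with the mutant in Cy3 -0.63. *Fabp6*, the bile acid binding protein of the ileum, had 1.04, 1.25 and 0.75 in the muscles of mice X, Y and Z, with no value in mouse W. The mean of 1.02 ± 0.25 (SD, n = 3) was the highest of the members in muscle and had their lowest unadjusted p of 0.00885, with a limma adjusted p of 0.941. Both arrays lay above 0 in each of these 3 mice. In heart the same clone gave 0.84, 0.07, -0.86 and -0.62, with mice on both sides of 0.

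*Fabp4*, the fatty acid binding protein of adipocytes, was 1.72 in the muscle of mouse W and -0.59, -0.06 and -0.64 in mice X, Y and Z. *Lpl* in the same muscles was 0.95, 0.17, -0.22 and -0.28, and *Fabp5* was 0.99, -0.67, 0.24 and -0.78. In each of these genes mouse W stood above the other mice, and all 3 *Lpl* clones were above 0 in it, at 0.71, 0.91 and 1.23. Adipocyte genes that are no members also stood highest in mouse W. The 10 of 12 on the array that were measured in muscle had a median of 1.23 in mouse W, -0.29 in X, -0.00 in Y and -0.51 in Z, and 7 of the 9 with a value in mouse W were above 0 there. *Adipoq*, which encodes the hormone adiponectin of fat cells, was 1.5, -0.45, -0.26 and -0.80, whereas *Lipe* and *Slc2a4* were at -1.08 and -0.45 in mouse W. Red blood cell genes were also highest in mouse W (median of the 4 measured of 5 on the array 1.05, then 0.15, 0.10 and -0.68 in X to Z). The median of the 6 haemoglobin clones, averaged over the 2 arrays, was 1.25, -0.17, 0.88 and -1.56 in the muscles of mice W to Z, so mouse Y was high too. The part of fat or blood in the tissue pieces was not tested. Without *Lpl* and *Fabp4* the median of the members in muscle was -0.06.

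**Figure D3:**
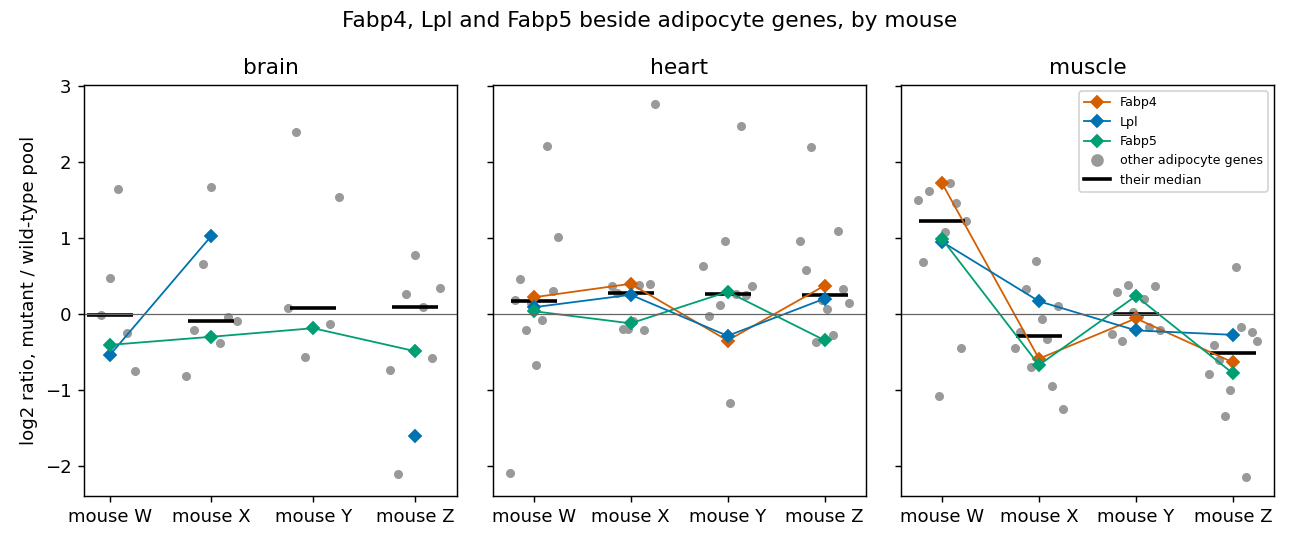
Log2 ratio of mutant over wild-type pool (vertical axis) in each mouse for *Fabp4*, *Lpl* and *Fabp5* (coloured diamonds), for the adipocyte genes that are no members (grey points) and for the median of the latter (black bars). In muscle *Fabp4*, *Lpl* and *Fabp5* reach 1.72, 0.95 and 0.99 in mouse W, beside an adipocyte median of 1.23.

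For activation, *Acss1*, the mitochondrial acetyl-CoA synthetase, was 0.28, 0.13, 0.19 and 0.22 in the 4 hearts and -0.05, -0.61, -0.69 and -0.62 in the 4 muscles. All hearts lay above 0 and all muscles below it. The means were 0.20 ± 0.06 and -0.49 ± 0.30 (SD, n = 4), and their difference of 0.70 ± 0.21 (SE) had the lowest unadjusted p between heart and muscle, 0.0102, with a limma adjusted p of 0.878. In heart the 2 arrays of each mouse had opposite signs: with the mutant in Cy5 the 4 hearts read 0.69, 0.61, 0.86 and 0.95, with the mutant in Cy3 -0.14, -0.35, -0.49 and -0.52. In muscle both arrays of a mouse had the same sign in 2 of 4 mice. *Acsl6*, the long-chain acyl-CoA synthetase of brain, was 0.17, 0.36, -0.13 and 0.55 in brain (mean 0.24 ± 0.29, SD) and had means of -0.09 in heart and -0.07 in muscle.

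Of the carnitine enzymes, *Cpt1c*, the brain form of carnitine palmitoyltransferase, which lies in the endoplasmic reticulum and has little activity of its own, was lowest. Its brain values were -0.27, -0.76, -0.29 and -0.62, a mean of -0.48 ± 0.24 (SD, n = 4) with the lowest unadjusted p of the members in brain, 0.0259, and a limma adjusted p of 0.499. All 4 brains lay below 0. In heart it was -0.81, -0.97, -0.87 and 0.13 (mean -0.63 ± 0.51, SD, n = 4; unadjusted p = 0.0420, limma adjusted p = 0.793), and mouse Z stood apart from the other mice. In the muscles of mice W, X and Z it was -1.79, -0.29 and 0.04, so most of the mean of -0.68 ± 0.98 (SD, n = 3) came from mouse W. The single *Cpt1c* clone was lower on arrays with the mutant in Cy3 in brain (-0.83 against -0.14) and lower on those with the mutant in Cy5 in heart (-0.96 against -0.30). *Cpt1b*, the form that commits fatty acids to oxidation in heart and muscle, had values of -0.23, 0.23, -0.82 and 0.33 in heart (mean -0.12 ± 0.53, SD) and of -1.14, -0.84, -0.11 and 0.90 in muscle (mean -0.30 ± 0.91, SD). In both organs the mice lay on both sides of 0. *Cpt2*, which returns the acyl group to coenzyme A inside mitochondria, was 0.52, 1.86, -0.05 and 0.13 in heart, and its mean in muscle was 0.12 ± 0.49. *Crat*, carnitine acetyltransferase, had means from -0.04 to 0.08.

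The promoter of *Cpt1c*, the member with the lowest p in brain, is shown with those of *Acadm* and *Echs1*, central enzymes of the spiral whose clones differed in sign. Each runs from 250 bases before to 50 after the start of the gene at chr7:44974802-44975101, chr3:153944594-153944893 and chr7:140116372-140116671 (GRCm38.p6, RefSeq; all on the minus strand, written 5′ to 3′ along the gene). Capitals mark the core motif of nuclear receptors, AGGTCA, or, read on the other strand, TGACCT.
Cpt1c: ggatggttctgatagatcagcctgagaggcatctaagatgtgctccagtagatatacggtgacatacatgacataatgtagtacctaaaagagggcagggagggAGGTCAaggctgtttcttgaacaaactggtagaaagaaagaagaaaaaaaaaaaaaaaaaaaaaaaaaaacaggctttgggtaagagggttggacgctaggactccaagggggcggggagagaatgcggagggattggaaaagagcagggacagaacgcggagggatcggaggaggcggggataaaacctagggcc
Acadm: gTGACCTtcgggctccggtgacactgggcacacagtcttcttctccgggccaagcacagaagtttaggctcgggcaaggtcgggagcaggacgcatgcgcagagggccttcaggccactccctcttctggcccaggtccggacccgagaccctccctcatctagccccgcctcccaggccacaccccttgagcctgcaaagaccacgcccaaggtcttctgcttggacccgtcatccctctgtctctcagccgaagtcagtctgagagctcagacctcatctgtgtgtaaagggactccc
Echs1: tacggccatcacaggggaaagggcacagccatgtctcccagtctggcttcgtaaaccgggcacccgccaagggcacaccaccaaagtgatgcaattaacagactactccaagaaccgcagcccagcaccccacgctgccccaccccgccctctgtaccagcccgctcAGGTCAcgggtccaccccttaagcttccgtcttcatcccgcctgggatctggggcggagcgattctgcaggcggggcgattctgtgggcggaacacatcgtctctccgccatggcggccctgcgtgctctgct

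Promoter windows were found for 38 of the 50 members. AGGTCA, read on both strands, was in 10 of the 38 (26.3%), beside 18.1% of 27025 genes with such a window. The DR1 element, a direct repeat of AGGTCA with 1 base of any kind between the copies, searched on both strands with up to 2 differences and overlapping AGGTCA itself, was in 5 (13.2%), those of *Fabp1*, *Echs1*, *Etfa*, *Acot12* and *Acox2*, beside 4.4% of genes. *Fabp1* and *Etfa* were not measured, *Acot12* was measured in muscle only (mean -0.73 ± 1.01, SD, n = 3), and in brain, heart and muscle *Echs1* had means of 0.13, 0.01 and -0.19 and *Acox2* of 0.58, 0.03 and 0.05. A match is a description of these letters only.

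The acyl-CoA dehydrogenases, which begin each turn of the spiral, lay close to 0. Their medians were 0.03 in brain (6 measured of 8), 0.08 in heart (8) and -0.02 in muscle (8). *Acadl*, the long-chain enzyme, was 0.07, 0.41, -0.05 and 0.17 in heart and had means of -0.16 ± 0.25 in brain and -0.00 ± 0.13 in muscle (SD, n = 4). *Acadvl*, the very-long-chain enzyme of the inner membrane, had means of -0.08 ± 0.29 in heart and -0.04 ± 0.27 in muscle. *Acads*, the short-chain enzyme, was above 0 in all 4 muscles at 0.77, 0.04, 0.18 and 0.24, with mouse W highest (mean 0.31 ± 0.32, SD, n = 4; limma adjusted p = 0.941). With the mutant in Cy5 its muscle mean was 0.71, with the mutant in Cy3 -0.10, and both arrays had the same sign in 1 of 4 mice.

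*Acadm*, the medium-chain enzyme, was set by a single mouse in each of 2 organs. It was -0.08, 0.06, -1.17 and 0.09 in heart and -0.18, 0.91, -0.12 and -0.19 in muscle. The low heart of mouse Y came from clone 1918 at -2.22, while clone 19090 gave -0.11 there. *Acad8*, of valine breakdown, and *Acad9*, also needed to assemble respiratory complex I, had means of 0.02 and 0.10 in heart and of -0.10 and -0.36 in muscle. *Acad10* was below 0 in all 4 muscles (mean -0.21 ± 0.13, SD), and *Acad11* had means from -0.03 to 0.20.

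The group of the later steps, hydratases, isomerases, reductases and thiolase, lay above 0 for 9 of 10 genes in heart (median 0.16) and below 0 for 8 of 9 in muscle (median -0.10), whereas in brain 6 of 9 were above 0 (median 0.05). *Echdc1* and *Echdc3* were put in this group by name and not by a role in the spiral. Without them, an exclusion chosen after the values were seen, 7 of 8 were above 0 in heart (median 0.11). In brain 4 of 7 were above 0 (median 0.04), and in muscle 7 of 7 were below 0 (median -0.15). The muscle count held on neither dye alone, since *Acaa2* read 0.28 with the mutant in Cy5 and *Decr1* 0.23 with the mutant in Cy3. In heart *Hadha* read -0.15 with the mutant in Cy5 and *Eci2* -0.14 with the mutant in Cy3. Over all symbols 53.7% were above 0 in heart and 48.2% below 0 in muscle. In heart the median of this group was 0.14, 0.40 and 0.17 in mice W, X and Z and -0.03 in mouse Y, and in muscle it was -0.31, -0.10 and -0.25 in mice W, Y and Z and 0.10 in mouse X. Fibre genes also lay low in muscle, with 12 of 13 fast-fibre genes (median -0.07) and 8 of 10 slow-fibre genes (median -0.38) below 0, the latter at -0.72, 0.32, -0.34 and -0.05 in mice W to Z. In heart 7 of 10 adipocyte genes that are no members lay above 0 (median 0.28). So did 9 of 13 cardiac muscle genes (median 0.02) and 9 of 13 fibroblast and matrix genes (median 0.11) in heart. Of the endothelium genes 11 of 15 (median -0.21) and of the red blood cell genes 5 of 5 (median -0.50) lay below 0 there. The part of fibre types, cardiac muscle, fibroblasts, fat, endothelium or blood in these values was not tested. *Hadh*, the short-chain hydroxyacyl-CoA dehydrogenase, was 0.13, 0.61, -0.04 and 0.27 in heart and -0.15, -0.09, -0.21 and -0.16 in muscle, with means of 0.24 ± 0.28 and -0.15 ± 0.05 (SD, n = 4). *Hadha*, the alpha subunit of the trifunctional protein, was -0.22, 0.58, -0.26 and 0.48 in heart and -0.55, 0.30, -0.10 and -0.04 in muscle, and the mice overlapped between the organs. *Ech1*, which moves double bonds of unsaturated acyl chains, was 0.47, 0.44, -0.52 and 0.39 in heart and -0.35, -0.36, -0.08 and -0.33 in muscle. Mouse Y stood apart from the other 3 mice in both organs, and the limma adjusted p of *Ech1* was 0.842 in heart and 0.941 in muscle.

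*Decr1*, the reductase for unsaturated chains, had means of 0.20 ± 0.15 in heart and -0.04 ± 0.15 in muscle, and *Acaa2*, the thiolase that ends a turn, 0.09 ± 0.10 and -0.16 ± 0.16 (SD, n = 4). *Acaa2* read 0.68 with the mutant in Cy5 and -0.51 with the mutant in Cy3 in heart, a gap far larger than the spread of its mouse means. *Echs1*, the short-chain hydratase, was -0.28, 0.36, -0.04 and 0.48 in brain. Its clone 349 gave a mean of 0.69 there, above 0 in all 4 mice, and its clone 19244 one of -0.43, below 0 in all 4, so the gene mean of 0.13 ± 0.35 joined clones of opposite sign. The isomerases *Eci2* and *Eci3* had means from -0.34 to 0.30.

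*Echdc1*, ethylmalonyl-CoA decarboxylase, which removes a side product of fatty acid synthesis and shares only the fold of the hydratases, had the highest mean of the members in heart. Its values were 1.29, 0.44, 1.70 and 0.32, a mean of 0.94 ± 0.67 (SD, n = 4; unadjusted p = 0.0205, limma adjusted p = 0.793). All hearts lay above 0, but both arrays had the same sign in 1 mouse of 4. In mice W and Y the arrays with the mutant in Cy3 read 2.93 and 3.74 and those with the mutant in Cy5 -0.35 and -0.34. In brain *Echdc1* was 0.68, 0.13, 0.20 and 0.41 (mean 0.35 ± 0.24, SD), also above 0 in all mice, with opposite signs on the arrays of every mouse. In muscle its mean was -0.01 ± 0.33. *Echdc3*, a relative of the hydratases, varied most among mice in muscle within this group, from -0.95 in mouse W to 2.01 in mouse X.

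*Etfb*, a subunit of the electron transfer flavoprotein, was below 0 in all 4 brains at -0.20, -0.10, -0.46 and -0.22 (mean -0.24 ± 0.15, SD, n = 4; limma adjusted p = 0.543). With the mutant in Cy5 its mean was -0.66, with the mutant in Cy3 it was 0.18, and both arrays had the same sign in 2 of 4 mice. It was 0.16, 0.48, -0.40 and 0.45 in heart and 0.12, 0.09, 0.01 and -0.14 in muscle, with mice on both sides of 0. *Etfdh*, which passes the electrons to ubiquinone, was measured in brain only, at -0.10 ± 0.41. Among the peroxisomal enzymes *Acox3*, an oxidase of branched chains, was 0.19, 0.12, 0.15 and 0.19 in muscle (mean 0.16 ± 0.04, SD, n = 4; limma adjusted p = 0.941). That small spread joined 2 clones that ran apart, clone 10613 at 0.19, -0.01, 0.48 and 0.65 and clone 15590 at 0.20, 0.24, -0.18 and -0.27. *Acox2*, the oxidase of branched chains and bile acid precursors, had a mean of 0.58 ± 0.66 in brain, with mouse X at 1.5 and mouse W at -0.04. *Acaa1a*, the peroxisomal thiolase, was measured in heart only, at -0.45 ± 0.42 (SD, n = 3).

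The thioesterases cut acyl-CoA back to the free acid, and 2 of them were among the members with the lowest p in brain. *Acot7*, an abundant enzyme of neurons, was -0.12, -0.44, -0.48 and -0.48 in brain. Its mean was -0.38 ± 0.17 (SD, n = 4; unadjusted p = 0.0420, limma adjusted p = 0.499), and its 2 clones gave -0.42 and -0.34. In brain clone 8274 read 0.00 with the mutant in Cy5 and -0.68 with the mutant in Cy3, and clone 10437 read -0.51 and -0.33. *Acot7* also had negative means in heart (-0.26 ± 0.25) and muscle (-0.22 ± 0.27), with mice on both sides of 0 in each. *Acot11*, known from brown fat, was 0.25, 0.31, 0.31 and 0.48 in brain (mean 0.34 ± 0.10, SD, n = 4; unadjusted p = 0.0484, limma adjusted p = 0.499). All brains lay above 0 within a narrow range. In heart *Acot11* was -0.39, -0.04, -0.07 and 0.06. *Acot9*, of mitochondria, was 1.24, 0.30 and 0.14 in the brains of mice X, Y and Z and 0.04, -0.35, -0.08 and -0.36 in the hearts. The brain of mouse X read 0.23 with the mutant in Cy5 and 2.26 with the mutant in Cy3, and that of mouse Z 0.495 and -0.21. *Acot13*, bound to mitochondria, had means of 0.27 in heart, -0.23 in brain and 0.01 in muscle. *Acot3* and *Acot8* lie in peroxisomes: *Acot3* was 0.38, -4.26, 0.40 and 0.02 in muscle, where the low value of mouse X rests on 1 spot of clone 692 at -16.1, and *Acot8* was measured in brain only (mean -0.44 ± 0.63, SD, n = 3).

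Markers of brain cells are given beside the brain values of *Cpt1c*, *Acot7* and *Fabp5*. Of 18 neuron genes on the array 15 were measured in brain, with 12 below 0 (median -0.22; -0.12, -0.29, -0.16 and -0.26 in mice W to Z), and of 10 astrocyte genes 9 were measured, with 8 below 0 (median -0.19; -0.18, -0.21, -0.12 and -0.43). Of the endothelium genes 9 of 12 measured were below 0 (median -0.15), and of the macrophage and microglia genes 6 of 9 (median -0.11). Oligodendrocyte genes were below 0 for 4 of 7 (median -0.05). Over all symbols 55.1% were below 0 in brain. The part of these cell types in the values of the 3 genes was not tested.

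Direct tests between organs, which took the organs as unpaired groups, gave 0 called members. For brain against heart 0 of 37 members were called at an adjusted p under 0.10 beside 0% of all symbols, for brain against muscle 0 of 36 beside 0%, and for heart against muscle 0 of 41 beside 0.0152%. At an unadjusted p under 0.05 the differences were above 0 for 3 members and below 0 for 0 in brain minus heart (4.34% and 6.48% of all symbols), 0 and 0 in brain minus muscle (2.64% and 3.43%), and 2 and 1 in heart minus muscle (2.26% and 2.73%). The 3 of brain minus heart were *Acot11* at 0.45, *Acot9* at 0.75 and *Slc27a5* at 0.71 (limma adjusted p from 0.453 to 0.459). Those of heart minus muscle were *Acss1* at 0.70, *Echdc1* at 0.94 and *Fabp6* at -1.16 (limma adjusted p = 0.878). With the mouse as a block, 0 members of brain minus heart had an unadjusted p under 0.05 (limma), and 3 of heart minus muscle. Between brain and muscle *Fabp6* had the lowest unadjusted p of 0.0663, with a difference of -0.64 and a limma adjusted p of 0.704. Of the 36 members measured in all organs, 4 (11.1%) had means above 0 in all 3 and 5 (13.9%) below 0 in all 3, beside 11% and 11.1% of the 6056 symbols measured in all organs. The same mice gave all organs, yet how a mouse deviated from the mean of one organ and of another correlated only by -0.03 to 0.06, across 3799 symbols that are not independent replicates.

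Genes with more than 1 clone allowed a check on the spots themselves. The clones of a member differed in sign for 6 of 9 such genes in brain, 3 of 9 in heart and 4 of 12 in muscle, beside 52.1%, 51.5% and 55.9% of all symbols with more than 1 clone. In brain the 3 *Fabp3* clones ran from -0.71 to 0.38, and the 2 *Acadm* clones gave -0.28 and 0.75. *Lpl* in heart and *Acot7* in every organ had clone means of the same sign. In single mice of muscle the *Acot7* clones ran apart, 8274 at -0.44, -0.03, 0.16 and -0.23 and 10437 at 0.45, 0.06, -1.08 and -0.65. In heart their means were 0.35 and -0.61 with the mutant in Cy5 and -0.73 and -0.04 with the mutant in Cy3. Both arrays of a mouse had the same sign for 51.1% of the member clone and mouse pairs in brain, 41.3% in heart and 47.7% in muscle, and for 48.7%, 44.5% and 46.2% of all clones.

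**Figure D4:**
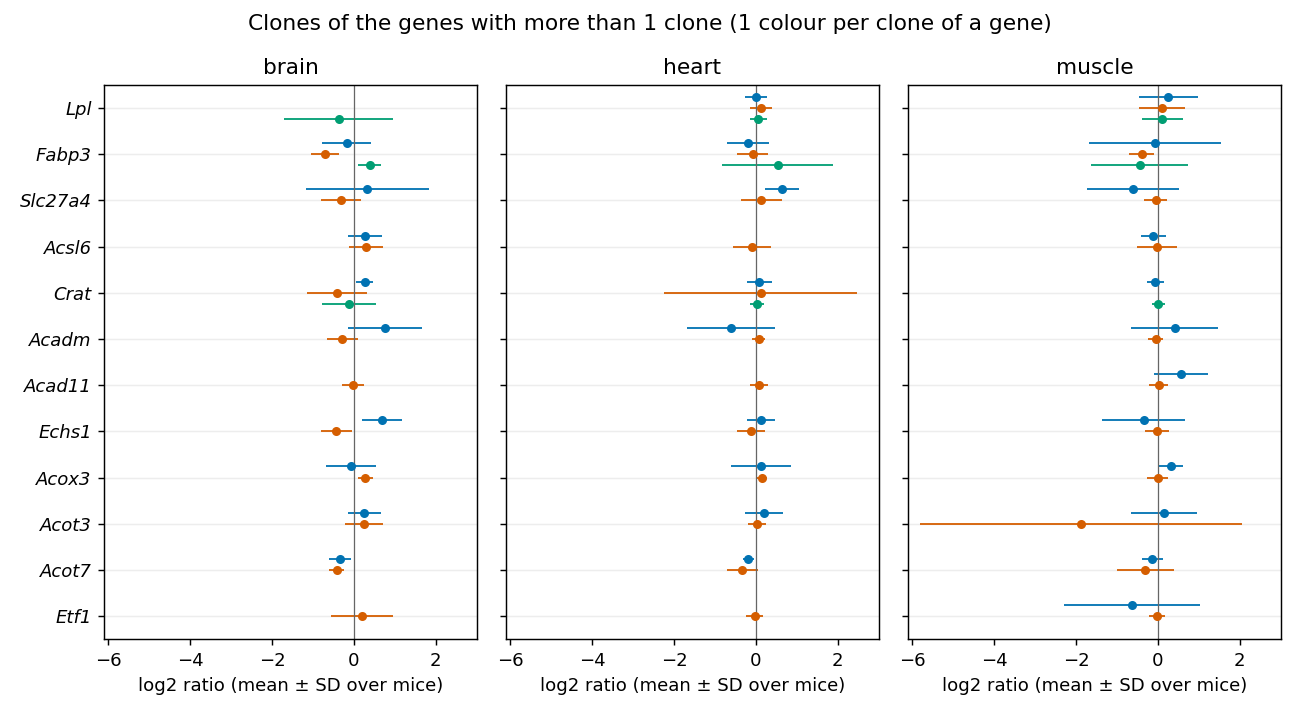
Mean log2 ratio over mice with its SD (horizontal axis) for each measured clone of the members with more than 1 clone, in brain, heart and muscle, with 1 colour per clone of a gene. The means of the *Acot7* clones have the same sign in all organs, whereas those of the *Echs1* clones in brain lie at 0.69 and -0.43. The widest bar belongs to *Acot3* in muscle.

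Other genes around the pathway gave 0 calls as well. Of 9 measured genes for further oxidation enzymes, which did not include the carnitine carrier, 8 were above 0 in heart (median 0.11), beside 4 of 9 in brain and 5 of 9 in muscle. Nuclear receptors and coactivators of fatty acid genes were above 0 for 7 of 10 in heart (median 0.17) and for 3 of 10 in muscle (median -0.15). *Esrra*, an orphan receptor that drives mitochondrial genes, was 0.38 ± 0.50 in brain, 0.23 ± 0.28 in heart (SD, n = 4) and -1.11 ± 0.77 in muscle (SD, n = 3), the last with an unadjusted p of 0.0377. PPAR targets that are no members were above 0 for 5 of 6 in brain, 3 of 7 in heart and 1 of 5 in muscle. Genes of fatty acid synthesis and desaturation were below 0 for 10 of 13 in brain (median -0.26), 8 of 16 in heart and 10 of 15 in muscle. *Fads1*, the delta-5 desaturase, was at -0.46 ± 0.09 in brain (SD, n = 4; unadjusted p = 0.0157). *Scd1*, the stearoyl-CoA desaturase, was at 1.40 ± 1.23 in heart (SD, n = 4; unadjusted p = 0.0328). Genes of lipolysis and lipid droplets were above 0 for 10 of 18, 12 of 20 and 11 of 18 in brain, heart and muscle, those of ketone bodies for 1 of 4, 2 of 4 and 2 of 3, and those of peroxisome import and assembly for 3 of 8, 5 of 9 and 3 of 8. None of the genes on these lists passed an adjusted p under 0.10 (limma).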

How the data were processed

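Per the methods, RNA of brain, heart and muscle was hybridised to 20794 cDNA clones, slides were scanned with a GenePix scanner, and the authors normalized the signals with MIDAS, without naming the method. The deposited values were log2 ratios, already turned for the dye exchange, and were used as deposited. The sources used here give no signal over background, so the precision is judged from the number of arrays and mice and from how far they agree. The platform annotation gave 1 symbol for 12771 clones. The remaining 8023 were treated as without a symbol, which takes in any clone annotated with more than 1. The members and lists were chosen with earlier results of these data known.

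The 2 arrays of a mouse were averaged, clones needed both arrays in at least 3 of 4 mice, and clones of a symbol were averaged. Means were compared with 0, and organs with each other, by limma 3.58.1 (lmFit, eBayes, two-sided, Benjamini-Hochberg over all symbols, adjusted p under 0.10) in R 4.3.3, tested on simulated data. The wild-type pool was taken as 1 control sample. SAM, the tool of the methods, was rewritten in R with a limit of 10% false positives. Every member could be named. Mouse values are given for the 3 members with the lowest p in each organ. They are also given for part of the central enzymes and part of the members whose clones differ in sign. Others were chosen with their values in view. Of each list of other genes, up to 3 with the largest mean ratios in size could be named. *Adipoq*, *Lipe* and *Slc2a4* were chosen with their values in view. Since each mouse gave brain, heart and muscle, samples are paired by mouse. The alternatives tried were arrays centred, or centred and scaled, stricter and looser limits on missing values, single dyes, the arrays as samples with the mouse as a random block, robust eBayes, other thresholds, other handling of clones, values beyond 10 as missing, the mouse as a block, and each mouse left out. Reading the heart of mouse Y from its Cy3 array only was added after the data were seen. Promoter windows came from RefSeq (GRCm38.p6). Python 3.11.15 with matplotlib 3.10.9 drew the figures.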

Additional observations from a re-analysis of the deposited data

Results flagged for a closer look

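In 10 of the 105 sets of 4 mice a single mouse lay far from the other 3 (by Dixon's ratio of gap to range), or 9.52%, beside 7.01% of the 17174 such sets over all symbols, and chance gives about 1 in 20. In brain these were *Acot7* in mouse W at -0.12, beside -0.48 to -0.44 in the others, and *Etf1* in mouse X at -0.93, beside 0.42 to 0.68. In heart they were *Acadm* in mouse Y at -1.17, beside -0.08 to 0.09, *Cpt1c* in mouse Z at 0.13, beside -0.97 to -0.81, *Ech1* in mouse Y at -0.52, beside 0.39 to 0.47, and *Slc27a4* in mouse X at 1.01, beside 0.14 to 0.21. In muscle they were *Acadm* in mouse X at 0.91, beside -0.19 to -0.12, *Acot3* in mouse X at -4.26, beside 0.02 to 0.40, *Acss1* in mouse W at -0.0525, beside -0.69 to -0.61, and *Ech1* in mouse Y at -0.0765, beside -0.36 to -0.33.

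*Acss1* lay above 0 in all 4 hearts and below 0 in all 4 muscles. Its means of 0.20 and -0.49 differed by 0.70, and the test of that difference did not pass (limma adjusted p = 0.878). The heart mean of *Acss1* was 0.78 with the mutant in Cy5 and -0.37 with the mutant in Cy3. Both arrays had the same sign in 0 of 4 hearts. In muscle these means were -0.35 and -0.64. The share of all symbols with such a pattern between organs was not counted.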

How the results depend on the processing

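The number of called members was 0 in each organ and between each pair of organs under every alternative run. With the replicate block (the mouse as a block) 0 members were called in all 3 pairs of organs, and the lowest limma adjusted p of a member was 0.604 between brain and heart, 0.756 between brain and muscle and 0.899 between heart and muscle. The median of the members in heart was 0.17 with the mutant in Cy3 only. The members below 0 numbered 11 of 30 in brain when both arrays were required in all 4 mice, where fewer genes were measured, and 24 of 50 in heart with the mutant in Cy5 only. Leaving out each mouse in turn gave 11 to 19 members below 0 in brain and 9 to 16 in heart, both lowest without mouse Z, and 20 to 24 in muscle. The members measured numbered 30 to 37 in brain, 39 to 41 in heart and 36 to 40 in muscle in these settings. The medians then ran from -0.00 to 0.09 in brain, 0.06 to 0.11 in heart and -0.09 to -0.01 in muscle. With the mutant in Cy5 only the median in brain was -0.05. With mouse Y read from its Cy3 array only, which was chosen after seeing the data, the median in heart was 0.13. The sign of a member's mean was the same in every setting for 14 of 39 members in brain, 12 of 43 in heart and 10 of 42 in muscle. Where values changed, the cause was not tested. Precision is limited by the 4 mice and 1 pool per organ and by arrays of exchanged dyes that agreed little.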
